A study of Mus musculus with 2 samples.

Results

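Chemokine receptors are 7-helix receptors through which small secreted proteins, the chemokines, steer leukocytes. The 8 receptor genes described here were chosen by symbol, without use of any measured value, from the 37451 genes of an expression table of bone marrow-derived macrophages (BMDMs). They are *Ccr1*, *Ccr2*, *Ccr3*, *Ccr7*, *Ccrl2*, *Cxcr2*, *Cxcr4* and *Cx3cr1*, and each symbol matched 1 row of the table. In LPS-treated BMDMs 3 of the 8 had a mean of at least 1 FPKM over both libraries, 4 were between 0 and 1 FPKM, and 1 was listed at 0. FPKM values are fragments per kilobase of exon, normalised to the size of the library, so that levels are per length and can be compared between genes.

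As background, most chemokine receptors couple to Gi proteins, and the receptor a leukocyte carries decides which chemokine gradients it can follow. CC receptors such as CCR1 and CCR2 serve the entry of monocytes into inflamed tissue, CCR7 guides cells to lymph nodes, and CXCR2 is the neutrophil receptor for ELR-containing CXC chemokines. CCRL2 is an atypical receptor that binds the chemoattractant chemerin without G protein signaling. Macrophages make many of the ligands of these receptors after contact with LPS, and several of the ligand mRNAs are destabilized by tristetraprolin (TTP), the product of *Zfp36*.

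The 2 libraries were 1 of WT and 1 of ΔM cells. WT BMDMs came from C57BL/6 mice. ΔM BMDMs came from C57BL/6 TTP fl/fl LysMCre mice, in which the lysozyme M promoter drives Cre and *Zfp36* is lost in myeloid cells. Mice were 7 to 9 weeks old and WT animals were littermates. All cells were grown from marrow of the femur and tibia with CSF-1 from L929 cells, given 100 μM 4-thiouridine (4sU) for 16 h and afterwards 10 ng/ml LPS for 6 h, so that no unlabeled and no unstimulated cells were measured. The 6 h are those of the treatment protocol, and what the ending LPS7 of both sample titles stands for is not explained in the labels. How many animals a library represents is not given in the sources used here.

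With no second library of either genotype, no difference could be held against replicates and no p-value is given. The depth was estimated from the steps between low FPKMs, which gave 37200000 fragments in WT and 32900000 in ΔM. Where an interval follows a value it is a 95% interval for counting error only, exact Poisson for a level and exact conditional binomial (Clopper-Pearson) for a ratio. It compares 2 libraries and not the genotypes. The paper does not state whether PCR copies were removed, so the true counting error may be larger. The targeted gene *Zfp36* (chr7:29161803-29164274, minus strand, mm9) had 65.3 FPKM in WT and 16.7 in ΔM, a log2 ratio of -1.90 after adding 1 FPKM to both. All 10 macrophage markers listed were at 1 FPKM or more in both libraries. Their summed level was 4645 FPKM in WT and 3490 FPKM in ΔM, with *Cd68* at 388 and 390 FPKM and *Emr1*, the gene of F4/80, at 380 and 357 FPKM. *Lyz2*, whose locus carries the Cre in ΔM mice, was at 2481 and 1356 FPKM. T, B and NK cell markers summed to 0.12 FPKM in WT and 0.40 FPKM in ΔM, and none of the 10 reached 1 FPKM. Of 9 fibroblast, endothelial and erythroid markers, *Kdr* alone reached 1 FPKM, with 5.59 and 3.23 FPKM of a summed 6.53 and 3.63 FPKM.

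The order of the receptor genes was led by *Ccrl2*, followed by *Ccr1* and *Ccr2*, and it was the same in both libraries for these 3. In WT *Ccrl2* was 6.14 times as high as *Ccr1* per length, and *Ccr1* was 3.06 times as high as *Ccr2*. In ΔM these quotients were 3.92 and 2.64. None of the counting intervals of these 3 genes overlapped another in either library. The next 3 places in WT were held by *Ccr7*, *Cxcr4* and *Ccr3* at 0.36, 0.34 and 0.32 FPKM, and in ΔM by *Ccr3*, *Cxcr4* and *Ccr7* at 0.50, 0.39 and 0.27 FPKM. The intervals of neighbours among these 3 overlapped in both libraries, so their order is not resolved. *Cx3cr1* came next and *Cxcr2* last.

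**Figure D1:**
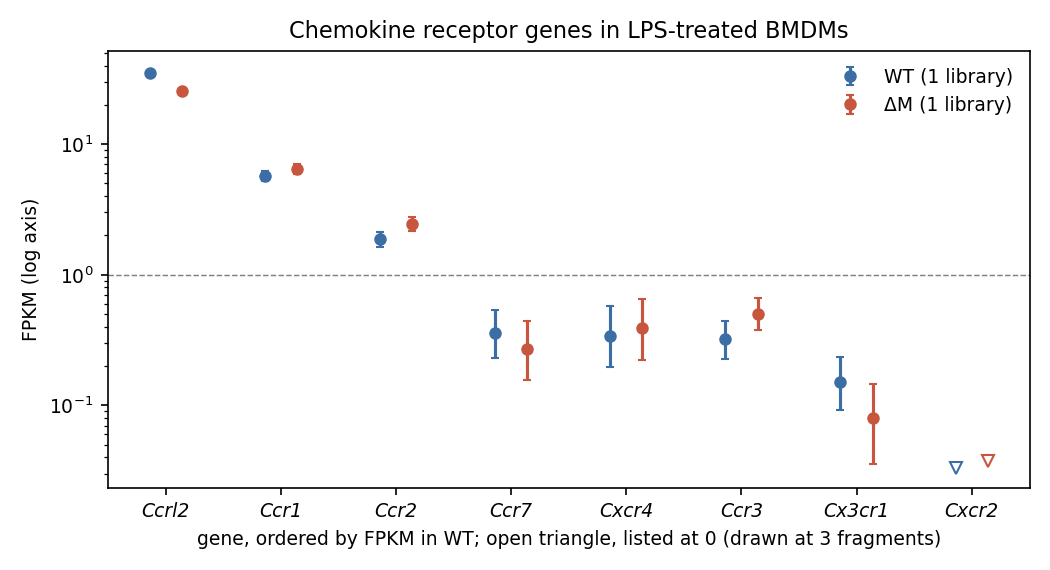
FPKM of the 8 chemokine receptor genes on a log axis, with 1 point for the WT library and 1 for the ΔM library, bars for the 95% Poisson counting interval, and a dashed line at 1 FPKM. *Ccrl2*, *Ccr1* and *Ccr2* lie above 1 FPKM in both libraries, 4 genes lie between 0.08 and 0.50 FPKM, and *Cxcr2*, listed at 0, is drawn as an open triangle at the FPKM of 3 fragments.

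*Ccrl2* (ENSMUSG00000043953, chr9:110957339-110959774, minus strand) is the atypical receptor that holds chemerin at the cell surface. It has 1 annotated transcript of 2110 nt. It was at 35.2 FPKM in WT (33.8 to 36.6, from about 2496 fragments) and at 25.4 FPKM in ΔM (24.1 to 26.6, from about 1592 fragments). *Ccrl2* thus stood at percentile 95.1 of the protein-coding genes in WT and at percentile 93.5 in ΔM. It was the most highly expressed of the 8 genes in both libraries and lower in ΔM. The plain ratio of ΔM to WT was 0.721 (0.677 to 0.768), that is, 1.39-fold lower (1.30 to 1.48), and the log2 ratio after adding 1 FPKM was -0.46. In these bulk libraries, fewer cells that express a receptor and less receptor RNA per cell cannot be told apart.

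The 3′ UTR of *Ccrl2* has 511 nt and holds the heptamer TATTTAT (written as DNA), a known binding motif of TTP, 1 time. Motifs were searched on the sense strand of the longest annotated 3′ UTR of each gene, and the pentamer ATTTA, which lies inside the heptamer, was counted as well. Of the 2184 protein-coding genes whose 3′ UTR is within 1.25-fold of this length, 12.5% hold the heptamer. The TTP site that the study lists for *Ccrl2*, from cells with another LPS time than these libraries, lies in the 3′ UTR part of the last exon and covers 5 nt of the heptamer. It is shown because it overlaps the only heptamer of this 3′ UTR. Capitals mark the listed site, and letters are from NCBIM37 (mm9), written 5′ to 3′ on the strand of the gene.
Ccrl2, chr9:110957703-110957709, minus strand, list for 3 h of LPS: cacacggttaaGTTATTTataaaggtgaa
The heptamer itself is at chr9:110957701-110957707. All 8 members were searched in the lists for 3 h and 6 h of LPS, in copies that may be shortened. Only this site was found, and nothing is drawn from the absence of others. A site or a motif match describes the sequence and does not account for a level.

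Across the 8 genes, the heptamer is found in the 3′ UTRs of *Ccrl2* and *Ccr2*, that is, in 2 of 8, against 23.8% of 20007 protein-coding genes with a 3′ UTR. The match in *Ccr2* (chr9:124022465-124022471, plus strand) is at nt 920 of a 3′ UTR of 2334 nt, where 40.2% of genes of similar length hold one. *Ccr2* also has 8 copies of ATTTA, against a median of 3 in genes of similar length. *Ccr1*, with a 3′ UTR of 1298 nt, has 1 copy of ATTTA and no heptamer, *Ccr3* has 2 copies in 2047 nt, *Cxcr2* 2 in 1810 nt, *Cxcr4* 1 in 644 nt, *Cx3cr1* 1 in 2577 nt and *Ccr7* none in 762 nt. Of the genes with the heptamer, *Ccrl2* was lower and *Ccr2* higher in ΔM.

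*Ccr1* (ENSMUSG00000025804, chr9:123876959-123883525, minus strand) encodes a receptor for CCL3, CCL5 and related CC chemokines. It was at 5.72 FPKM in WT (5.26 to 6.22) and at 6.47 FPKM in ΔM (5.95 to 7.03), from about 560 fragments in each library. The log2 ratio was 0.15 and the plain ratio 1.13, with an interval from 1.004 to 1.27 that only just leaves out 1. When the ratios were centred on those of genes averaging at least 10 FPKM, the interval for *Ccr1* ran from 0.980 to 1.24 and held 1. The 2 levels of *Ccr1* are therefore not resolved once scaling is varied.

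*Ccr2* (ENSMUSG00000049103, chr9:124016689-124028296, plus strand) encodes the CCL2 receptor of inflammatory monocytes. It was at 1.87 FPKM in WT (1.62 to 2.13, about 215 fragments) and at 2.45 FPKM in ΔM (2.16 to 2.78, about 250 fragments). The level in ΔM was the higher one, with a log2 ratio of 0.27 and a plain ratio of 1.31 (1.09 to 1.59). The gene has 4 annotated transcripts of 2265 to 5361 nt, and with the longest as the length the interval of the ratio was 1.13 to 1.51. After centring it was 1.07 to 1.55, so *Ccr2* remained above 1 in the scalings tried. Of its 6288 words of 32 nt, 263 (4.18%) also occur elsewhere in the genome. How many reads of *Ccr2* were lost when only uniquely mapped reads were kept was not tested.

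*Ccr3* (ENSMUSG00000035448, chr9:123936703-123946421, plus strand) encodes the eotaxin receptor that is typical of eosinophils, basophils and mast cells. It was at 0.32 FPKM in WT (0.228 to 0.446, about 37 fragments) and at 0.50 FPKM in ΔM (0.376 to 0.664, about 51 fragments). The plain ratio was 1.56 (1.001 to 2.45) and the log2 ratio after adding 1 FPKM, which understates the change of low genes, was 0.18. After centring, the interval of the plain ratio ran from 0.978 to 2.39 and held 1. The 9 markers of eosinophils, mast cells and basophils summed to 1.12 FPKM in WT and 0.90 FPKM in ΔM, none reached 1 FPKM, and the defining genes *Prg2*, *Ear1* and *Ms4a2* were listed at 0 in both. *Siglec5* made up most of the sum in WT, with 0.91 FPKM in WT and 0.40 in ΔM. *Epx*, the eosinophil peroxidase gene, was listed at 0 in WT and at 0.20 FPKM in ΔM. *Cpa3* and *Ear6* were also higher in ΔM, with 0.11 and 0.19 FPKM and with 0 and 0.06 FPKM. *Mcpt8* and *Il5ra* were lower in ΔM, with 0.08 and 0.05 FPKM and with 0.02 and 0 FPKM. The part of these genes in the level of *Ccr3* was not tested.

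*Ccr7* (ENSMUSG00000037944, chr11:99005510-99016391, minus strand) encodes the receptor that leads dendritic cells and lymphocytes to lymph nodes. It was at 0.36 FPKM in WT (0.233 to 0.540, about 24 fragments) and at 0.27 FPKM in ΔM (0.156 to 0.444, about 16 fragments). The intervals overlapped, and the plain ratio of 0.750 had an interval from 0.374 to 1.48. The summed level of the 9 dendritic cell markers was 95.2 FPKM in WT and 32.8 FPKM in ΔM, of which *Ccl22* made up 48.0 and 10.9 FPKM, *Fscn1* 42.2 and 18.8 FPKM and *Ccl17* 3.71 and 1.85 FPKM. *Flt3* and *Zbtb46*, which define conventional dendritic cells, were at 0.04 and 0.03 FPKM in WT and at 0 and 0.03 FPKM in ΔM. *Clec10a* was at 1.06 FPKM in WT and 1.02 in ΔM, and *Cd209a* was at 0.16 and 0.08 FPKM. *Clec9a* and *Siglech* were higher in ΔM, with 0.02 and 0.05 FPKM and with 0.02 and 0.1 FPKM. The part of these genes in the level of *Ccr7* was not tested.

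*Cxcr4* (ENSMUSG00000045382, chr1:130484776-130488870, minus strand) encodes the CXCL12 receptor that holds leukocytes in the bone marrow. It was at 0.34 FPKM in WT (0.196 to 0.577) and at 0.39 FPKM in ΔM (0.221 to 0.652), from about 15 fragments in each library. The plain ratio was 1.15 (0.515 to 2.48), and a difference of that size was not detectable at this depth. With the longest annotated transcript as the length, the fragments were about 20 in WT and 21 in ΔM. The interval of the ratio was then 0.612 to 2.31. *Cx3cr1* (ENSMUSG00000052336, chr9:119957811-119977400, minus strand) encodes the fractalkine receptor of patrolling monocytes and microglia. It was at 0.15 FPKM in WT (0.0931 to 0.235, about 20 fragments) and at 0.08 FPKM in ΔM (0.0355 to 0.147, about 9 fragments). The plain ratio of *Cx3cr1* was 0.533 with an interval from 0.204 to 1.17, which held 1. In WT the interval of *Cx3cr1* touched that of *Ccr3*, the gene above it, and in ΔM it lay below that of *Ccr7*.

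*Cxcr2* (ENSMUSG00000026180, chr1:74200563-74207812, plus strand) encodes the neutrophil receptor for CXCL1 and CXCL2, and it was listed at 0 in both libraries. If a 0 stands for no fragment, 3 fragments would allow up to 0.0332 FPKM in WT and 0.0376 FPKM in ΔM. Of the words of 32 nt in *Cxcr2*, 14.9% occur elsewhere in the genome, so most of the gene could have been counted. Of 10 neutrophil markers, *S100a9*, *Ly6g*, *Ngp*, *Elane* and *Retnlg* were also listed at 0 in both libraries. The summed level of the list was 54.8 FPKM in WT and 104 FPKM in ΔM, most of it from *S100a8* with 50.7 and 100.0 FPKM. *Mmp8* was at 3.94 and 3.74 FPKM, and *Camp* was listed at 0 in WT and at 0.41 FPKM in ΔM. *S100a8* and *S100a9* encode partner proteins, and whether a 0 in this table can also be a failed estimate was not tested.

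Ratios of ΔM to WT were set against all genes. At a fold of 1.5 on the log2(FPKM + 1) scale, 0 of the 3 members averaging at least 1 FPKM were called in either direction. Of all 10765 genes with such a mean, 11.2% were called higher in ΔM and 7.51% lower. Of the 8078 protein-coding genes among them, 4.82% were called higher and 5.36% lower. At a fold of 2, where again 0 of the 3 were called, the shares were 5.69% and 3.61% of all genes and 1.19% and 1.32% of protein-coding genes. The median log2 ratio of the 3 members was 0.15, against 0.03 over all genes and -0.00 over protein-coding genes, whose quartiles were -0.19 and 0.18. *Ccr1* thus lay within the quartiles of protein-coding genes, *Ccr2* just above them and *Ccrl2* below them.

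Without the added FPKM, *Ccr3* was past a plain ratio of 1.5 towards ΔM and *Cx3cr1* was past it towards WT. Both are low genes. Of 3552 protein-coding genes averaging 0.1 to 1 FPKM, 28.1% were past the same plain ratio towards ΔM and 25.3% towards WT, so that 1 of 4 low members in each direction is close to the background.

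**Figure D2:**
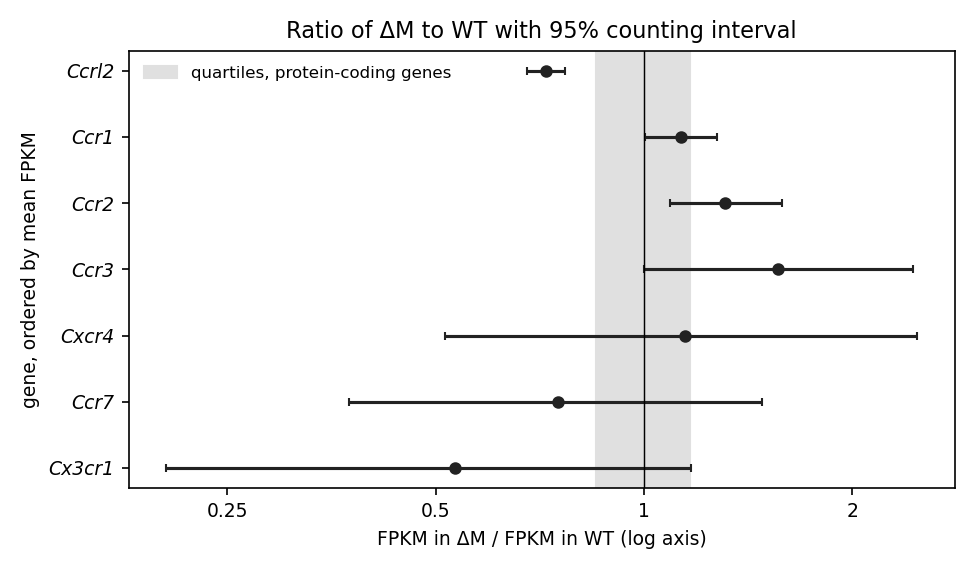
Plain ratio of FPKM in ΔM to FPKM in WT on a log axis, for the 7 members with a value above 0, with the 95% counting interval as a bar and the quartiles of protein-coding genes averaging at least 1 FPKM, 0.852 and 1.16, as a grey band. *Ccrl2* lies below the band, and the intervals widen towards the low genes at the bottom.

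The 8 members were set beside 15 other chemokine receptor genes, a selection that does not hold every such gene. The 15 were under 0.2 FPKM in each library, with *Cxcr7* highest in WT at 0.13 FPKM and *Ccr9* highest in ΔM at 0.11 FPKM. The values of *Ccr7*, *Cxcr4* and *Ccr3* were above all of them in both libraries, but not all counting intervals were apart. In WT the interval of *Cxcr4* (0.196 to 0.577) overlapped that of *Cxcr7* (0.0718 to 0.220). In ΔM the interval of *Ccr7* (0.156 to 0.444) overlapped that of *Ccr9* (0.0520 to 0.199). *Ccrl2* made up 79.1% of the summed FPKM of these 23 genes in WT and 70.7% in ΔM, *Ccr1* 12.9% and 18.0%, and *Ccr2* 4.21% and 6.83%. The summed level of the 8 members was 43.9 FPKM in WT and 35.5 FPKM in ΔM, and without *Ccrl2* the 22 remaining genes summed to 9.26 and 10.5 FPKM.

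Quotients of receptor genes within a library do not depend on the scaling between the libraries. *Ccr1* was at 0.163 of *Ccrl2* in WT and at 0.255 of it in ΔM, a change of 1.57-fold (1.37 to 1.79). *Ccr2* was at 0.0532 and 0.0966 of *Ccrl2*, a change of 1.82-fold (1.498 to 2.203). *Ccr3* was at 0.00910 and 0.0197 of *Ccrl2*, a change of 2.17-fold (1.41 to 3.32). *Ccrl2* was therefore lower relative to each of these 3 genes in the ΔM library, beyond counting error, with any scaling. For the other members the interval of the change held 1, with 1.04-fold for *Ccr7* (0.551 to 1.964), 1.59-fold for *Cxcr4* (0.775 to 3.26) and 0.740-fold for *Cx3cr1* (0.336 to 1.63) against *Ccrl2*. *Ccr2* against *Ccr1* gave 0.327 and 0.379, a change of 1.16-fold whose interval of 0.933 to 1.44 held 1. These intervals rest on a normal approximation of the log quotient.

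On chromosome 9 lie 5 of the 8 members, and *Ccr1*, *Ccr3* and *Ccr2* share a receptor cluster. From the lower end of *Ccr1* to the end of *Ccr2* are 151.3 kb. Levels in the cluster did not follow position, since *Ccr3*, between *Ccr1* and *Ccr2*, was below both. These 3 members had a higher value in ΔM, *Ccr1* and *Ccr3* with intervals that held 1 after centring. The other receptor genes there, which rest on few fragments, did not share a direction. *Ccr9* was at 0.07 FPKM in WT and 0.11 in ΔM. *Ccr1l1* was at 0.06 and 0 FPKM, *Cxcr6* at 0.08 and 0.07 FPKM and *Xcr1* at 0.06 and 0.05 FPKM. The genes on the other side of *Ccr1*, which were named for their position, went both ways, with *Lztfl1* at 4.88 and 2.79 FPKM, *Fyco1* at 1.17 and 1.16 FPKM and *Gm4694* at 0.70 and 1.25 FPKM. *Ccrl2* lies 12.92 Mb away from *Ccr1*, outside the cluster. None of the 8 genes overlaps another annotated gene.

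Ligand genes were compared between the libraries in the same way as the receptors. Of 21 ligand genes, 13 had a mean of at least 1 FPKM. Both counts include *Ccl4*, which was paired with no member. Among these, 8 were at least 1.5-fold higher in ΔM and 1 lower, where 11.2% and 7.51% of all genes were called. For protein-coding genes the shares were 4.82% and 5.36%. The 8 were also past 2-fold, against 5.69% of all genes and 1.19% of protein-coding genes. The median log2 ratio of the 13 was 1.03 against 0.03 over all genes. Several of these genes were known from earlier results of the same libraries when the list was made.

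*Ccr2* was at 1.87 and 2.45 FPKM while its ligands were higher in ΔM, *Ccl2* with 163 FPKM in WT and 353 in ΔM, *Ccl7* with 226 and 464 FPKM and *Ccl12* with 157 and 338 FPKM. For *Ccr1*, at 5.72 and 6.47 FPKM, the ligands were divided. *Ccl3* was at 923 FPKM in WT and 2501 in ΔM, *Ccl6* at 144 and 157 FPKM, *Ccl5* at 795 and 574 FPKM and *Ccl9* at 1792 and 1524 FPKM. The unpaired *Ccl4* was at 703 and 805 FPKM, and *Ccl8* was at 23.6 and 48.8 FPKM.

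*Cxcl1* and *Cxcl2*, ligands of *Cxcr2*, had the highest ratios of ΔM to WT among the ligands averaging at least 1 FPKM, while *Cxcr2* itself was listed at 0. *Cxcl1* was at 11.99 FPKM in WT and 62.6 in ΔM, with a log2 ratio of 2.29, and *Cxcl2* was at 87.9 and 440 FPKM, with a log2 ratio of 2.31. Of the other *Cxcr2* ligands, *Cxcl3* was at 5.39 and 13.2 FPKM, *Cxcl5* at 0.06 and 0.08 FPKM and *Ppbp* at 0.24 and 0.03 FPKM. *Ccl24*, a ligand of *Ccr3*, was at 1.09 and 0.56 FPKM, a plain ratio of 0.514 (0.287 to 0.891), and *Ccl11*, another, was listed at 0 in WT and at 0.03 FPKM in ΔM. The ligands of *Ccr7*, *Ccl19* and *Ccl21a*, were listed at 0 in both libraries, and *Cxcl12*, the ligand of *Cxcr4*, was at 0.02 FPKM in WT and 0 in ΔM. *Rarres2*, the chemerin gene, was at 0.05 FPKM in WT and 0 in ΔM. *Cx3cl1*, the membrane-bound ligand of *Cx3cr1*, was at 2.98 FPKM in WT (2.68 to 3.31) and at 0.26 FPKM in ΔM (0.174 to 0.384), a plain ratio of 0.0872 (0.0575 to 0.131). These ligands below a mean of 10 FPKM were named after their values were seen.

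**Figure D3:**
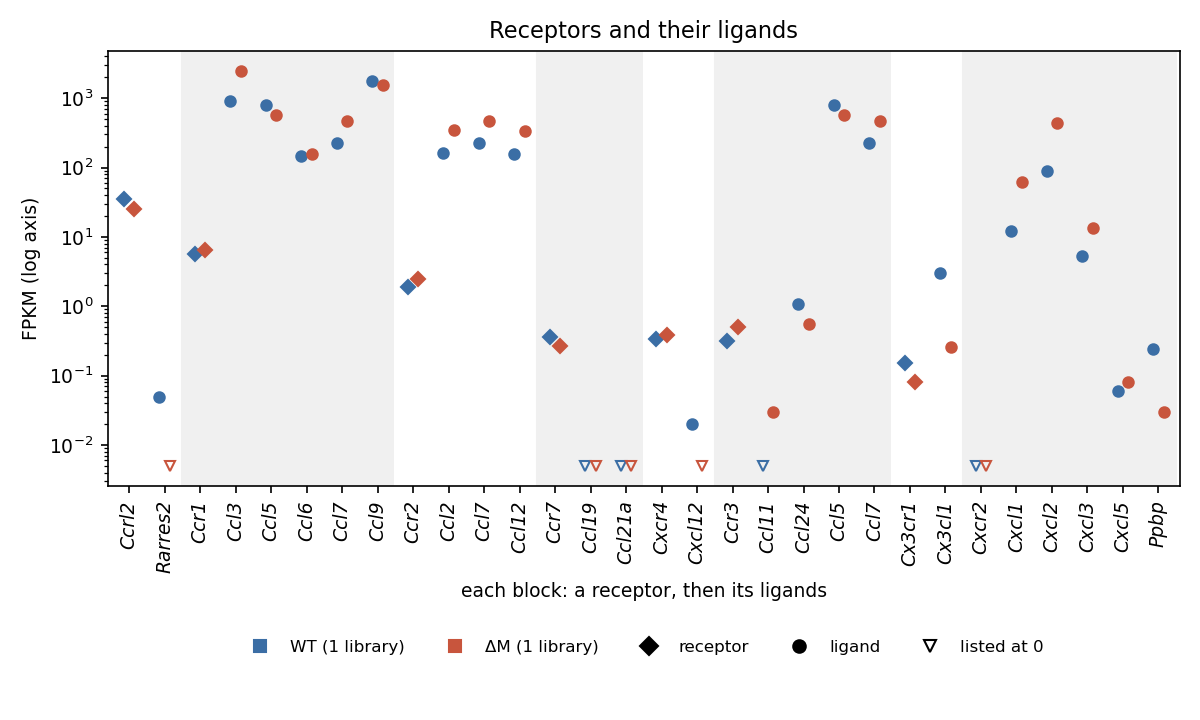
FPKM on a log axis of each member (diamond) followed by its ligands (circles) in a shaded or white block, with 1 point per library and open triangles for values listed at 0. Ligands of *Ccr2* and the *Cxcl1*, *Cxcl2* and *Cxcl3* genes lie higher in ΔM, *Cxcr2* is listed at 0 in both, and *Cx3cl1* lies lower in ΔM.

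Of 13 receptors for other chemoattractants, 7 had a mean of at least 1 FPKM. Among them, 1 was at least 1.5-fold higher and 1 lower in ΔM. The shares called were 11.2% and 7.51% of all genes and 4.82% and 5.36% of protein-coding genes. *Cmklr1*, the signaling receptor for chemerin, was at 0.99 FPKM in WT and 4.14 in ΔM, a plain ratio of 4.18 (3.33 to 5.26). *Ccrl2*, which binds the same ligand, was lower in ΔM, so that *Cmklr1* and *Ccrl2* went opposite ways. *Ptafr*, the receptor for platelet-activating factor, was at 9.51 and 4.21 FPKM, a ratio of 0.443 (0.397 to 0.492). The complement receptor gene *C3ar1* was at 41.0 and 53.9 FPKM and *C5ar1* at 8.90 and 7.25 FPKM. The formyl peptide receptor genes *Fpr1* and *Fpr2* were at 7.24 and 10.5 FPKM and at 27.0 and 23.7 FPKM, and *P2ry2*, a nucleotide receptor gene, was at 2.48 and 1.91 FPKM.

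The genes that act on or below chemokine receptors (G protein subunits, receptor kinases, arrestins, RGS proteins, PI3Kγ, phospholipase Cβ and Rac with its activators) had no common direction. Of 34 listed, 28 had a mean of at least 1 FPKM, 14 of them with a higher and 14 with a lower value in ΔM, and the median log2 ratio was -0.00. None was at least 1.5-fold higher and 1 was lower, where 11.2% and 7.51% of all genes were called. For protein-coding genes the shares were 4.82% and 5.36%. *Rgs1*, which encodes a GTPase-activating protein that shortens signaling of Gi-coupled receptors, was the one at least 1.5-fold lower, with 31.8 FPKM in WT, 11.5 FPKM in ΔM and a log2 ratio of -1.40. Named after their values were seen, *Rgs14* was at 40.1 and 59.0 FPKM and *Dock2*, a Rac activator gene, at 35.3 and 24.8 FPKM.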

How the data were processed

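The control RNA-Seq for PAR-iCLIP was used, with 1 library of WT and 1 of ΔM BMDMs. Per the paper, rRNA was depleted, and the authors trimmed the reads, aligned them to mm9 with Segemehl, kept those with a single hit and ran Cufflinks with Ensembl exons. Their deposited table gives FPKM per gene to 2 decimals and no counts, and no count model was fitted. The value missing for 1 gene in ΔM was left out.

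Depth was taken as the fragment number and mean fragment length (202 nt in both libraries) at which genes with a single transcript and a low FPKM hold whole fragments. At this setting 90.3% of 1118 values in WT and 91.0% of 1072 in ΔM were whole, against 14.9% and 13.1% by chance. The setting was chosen because it gave the largest excess over chance in these same values, so part of this contrast is built in. Over 6 ranges of transcript length, the estimate was 36700000 to 37200000 in WT and 32500000 to 32900000 in ΔM. Fragments per gene used the median annotated transcript length for members and the longest for other genes, and are approximate. The search was tested on simulated data.

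For log2 ratios of ΔM to WT, 1 FPKM was added to both values. Genes averaging at least 1 FPKM were held against a fold of 1.5 or 2. Of 37451 gene identifiers, 37039 were found in the annotation, GENCODE M1 on NCBIM37 (mm9). Motifs were counted in the longest 3′ UTR per gene, and words of 32 nt in member transcripts were searched in the whole genome on both strands.

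No measured value was used to choose the members. Earlier results of these data were, however, known when the members, gene lists and tests were chosen. The genes named are the 8 members, *Zfp36*, other receptors with a mean of at least 1 FPKM, ligands with a mean of at least 10 FPKM, signaling genes past 1.5-fold and the defining markers of each cell type list. Others are marked in the text, and some results are not reported here. Scripts ran in Python 3.11.15 with scipy 1.17.1, pandas 2.3.3, numpy 2.4.6 and matplotlib 3.10.9.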

Additional observations from a re-analysis of the deposited data

How the results depend on the processing

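Leaving out a library was not possible with 1 per genotype, and *Cxcr2*, at 0 in both libraries, gave no ratio. No paired analysis was possible because each genotype has 1 library. The 7 members with a ratio kept their direction with 0.1 FPKM added, with centring on genes averaging at least 10 FPKM (0.04 on the log2 scale) and with equal protein-coding sums. With centring, the plain ratios of *Ccr1* (1.10) and *Ccr3* (1.53) had intervals that held 1, because the bounds lay close to 1. The median log2 ratio of the members was 0.026 over all 8 and -0.46 at a mean of at least 10 FPKM, where *Ccrl2* was the only one left. Plain ratios without a filter, chosen after seeing the data, put 2 of 7 members past 1.5-fold in place of 0. Of all genes, 612 were at least 1.5-fold higher and 278 lower at a mean of at least 10 FPKM, and 389 and 433 among protein-coding genes, in place of 1202 and 808. Low members moved most with 0.1 FPKM added, *Cx3cr1* to -0.47, *Ccr3* to 0.51, *Ccr7* to -0.31 and *Cxcr4* to 0.16 on the log2 scale, and centring took *Cxcr4* to 0.01. Among the 59 planned comparisons, a reversal was counted only for a gene past 1.5-fold on the log2(FPKM + 1) scale. No member was past it, so no reversal could be counted. Changing the added FPKM cannot turn a direction. Depth limits the 5 members below 1 FPKM, which rest on at most 51 fragments in a library.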
